A study of Rattus norvegicus with 16 samples.

Results

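Liver messenger RNA of male Lewis rats aged 18 months was compared with that of rats aged 12 months, over 6 of the 16 samples of a study of liver ageing. The members were the samples titled with either age, 3 at 18 months (replicates 1, 3 and 4) and 3 at 12 months (replicates 2, 3 and 4). The other 10 samples came from rats of 3, 9 and 24 months. All rats were of the same inbred strain, were housed free of specific pathogens with food and water at will, and carried no listed allele or treatment, and each liver was frozen and measured on 1 one-colour array. The labels do not say whether each sample is a separate animal, so p-values measure the spread between these samples, which may be technical.

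The liver is made mostly of hepatocytes, which secrete plasma proteins, metabolise drugs, steroids and lipids, and make bile. Stellate cells lay down collagen, and Kupffer cells, lymphocytes, endothelium and bile duct cells make up most of the rest. Ageing of the rodent liver is known for changes in matrix, immune cells and drug-metabolising enzymes. The 27 hepatocyte markers measured were measured above background at both ages on every array.

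Levels are given as log2 signal relative to the 75th percentile of the array, so that a difference of 1 is a 2-fold difference. Between 57.7% and 62.5% of the probes of the 6 arrays lay well above background, and precision is limited by there being 3 arrays an age. Of the 6, array 2 of 12 months stood apart. Its correlation with the other 5 arrays was 0.954 to 0.968, whereas 12-month arrays 3 and 4 correlated at 0.989 with each other and at 0.986 to 0.989 with the 18-month arrays. Array 2 was scanned in an earlier session, with the arrays of 3, 9 and 24 months, and arrays 3 and 4 were scanned in 1 session with all of 18 months. The 18-month arrays shared slide 7, while those of 12 months lay on slides 2 and 6, so slide and age cannot be told apart for 18 months. Among 16535 genes measured above background on every one of the 16 arrays, the spread (median SD, log2) was 0.289 at 12 months and 0.131 at 18 months.

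A gene was called where the adjusted p of limma, over all 21441 genes tested, was under 0.05. By that rule 295 genes (1.38% of those tested) were called. At 18 months 230 of them (1.07%) had risen and 65 (0.303%) had fallen. An unadjusted p under 0.05 was reached by 3908 genes. The median difference over all genes was -0.06. Leaving out array 2 of 12 months gave 174 calls (0.812%), with 141 rises (0.658%) and 33 falls (0.154%), of which 147 were among the 295. The arrays of the shared scan session alone gave 176 calls, 141 higher and 35 lower. With slide as a random block 0 genes were called by limma, against 1360 at an unadjusted p under 0.05. The fit behind the 295 calls took its spread from the arrays of all ages. Over the same 16535 genes the median SD was 0.0845 at 3 months, 0.151 at 9 months and 0.258 at 24 months. A fit on the 6 arrays alone, which takes its spread from these only, called 2, and why it called fewer was not tested.

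Many of the genes called higher were measured by probes whose sequence resembles that of another, brighter probe, and 3 pairs are shown so that the likeness can be set beside the values. In each pair the first line is the probe called higher at 18 months and the second is the brighter probe of another gene, 5′ to 3′ as in the array files, with capitals for the aligned bases that are identical in both. In the rn4 build named by the file headers, the first pair lies at chr1:171395719-171395778 and chr4:78826721-78826780, the latter in Cycs, which encodes the cytochrome c of the respiratory chain. The probe like Rpl6, a protein of the large ribosomal subunit, lies at chr2:6307073-6307132, and that of Rpl6 at chr12:36484392-36484451. The probe named Brwd3 has no position in the files, and that of Ppid, a cyclophilin, lies at chr2:170999904-170999963.
Transcript like Cycs: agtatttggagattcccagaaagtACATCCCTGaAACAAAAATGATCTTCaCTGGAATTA
Cycs: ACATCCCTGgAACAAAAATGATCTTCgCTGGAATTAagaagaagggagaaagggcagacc
Unnamed probe like Rpl6: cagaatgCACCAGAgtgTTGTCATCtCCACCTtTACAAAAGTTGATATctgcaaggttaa
Rpl6: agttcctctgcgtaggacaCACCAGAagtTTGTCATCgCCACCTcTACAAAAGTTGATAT
Brwd3: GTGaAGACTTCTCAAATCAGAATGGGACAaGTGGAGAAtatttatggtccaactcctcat
Ppid: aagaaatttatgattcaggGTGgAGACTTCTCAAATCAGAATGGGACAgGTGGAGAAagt

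The probe like Cycs read -2.17, 0.33 and 0.07 on 12-month arrays 2, 3 and 4 and 2.25, 2.003 and 2.16 on 18-month arrays 1, 3 and 4, a difference of 2.73 (limma adjusted p = 0.014). The probe of Cycs itself read 5.50, 6.03 and 5.93 at 12 months and 6.07, 5.98 and 6.06 at 18 months, a difference of 0.22 (limma adjusted p = 0.57). The groups did not overlap for the first probe and overlapped for the second. The probe like Rpl6 and that named Brwd3 were well above background on every 18-month array and on none of 12 months. They were at least 2.53-fold and at least 3.18-fold higher at 18 months. A probe was tested if it was well above background on every array of some age, which both met at 18 months alone. Their calls are therefore no separate support for the rise. The probe of Rpl6 differed by 0.01 and that of Ppid by 0.0034. Of the pairs drawn up for printing, those left out had brighter probes of Atp6ap2 and Hnrnpa1, which differed by 0.46 and -0.35. Such a bound sets the mean at 18 months against the background limit of the 12-month arrays, taken as the lowest signal among probes well above background, or the probe's own value where that was higher.

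Over the array, 229 genes were represented by a probe with at least 30 bases identical to a probe of another gene that was at least 2 log2 units brighter at the other 3 ages. Brightness here is the signal of a probe and not the level of a transcript. Of these 229, 51 (22.3%) were called higher and 0 lower, against 0.844% called higher among the other 21212 genes. Where the other probe was brighter by over 4 log2 units, 39.3% (42 genes) were called higher. None of the 65 genes called lower had a probe with such likeness to that of any other gene, brighter or not. Only 929 of the 21441 genes tested had one, so 0 of 65 is not read as a result about the falls. The 51 probes differed by a median of 1.65, and the brighter probes they resemble by a median of 0.05, with 23 of the 51 below 0. With the 5 that were above background on no 12-month array set at their bound, the median of the 51 was 1.62. This class was chosen after its values were seen and has no test, and its part in the other rises was not tested. Without the genes whose probe resembles any other gene's, a choice also made after seeing the data, 155 genes were called, 115 higher and 40 lower.

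**Figure D1:**
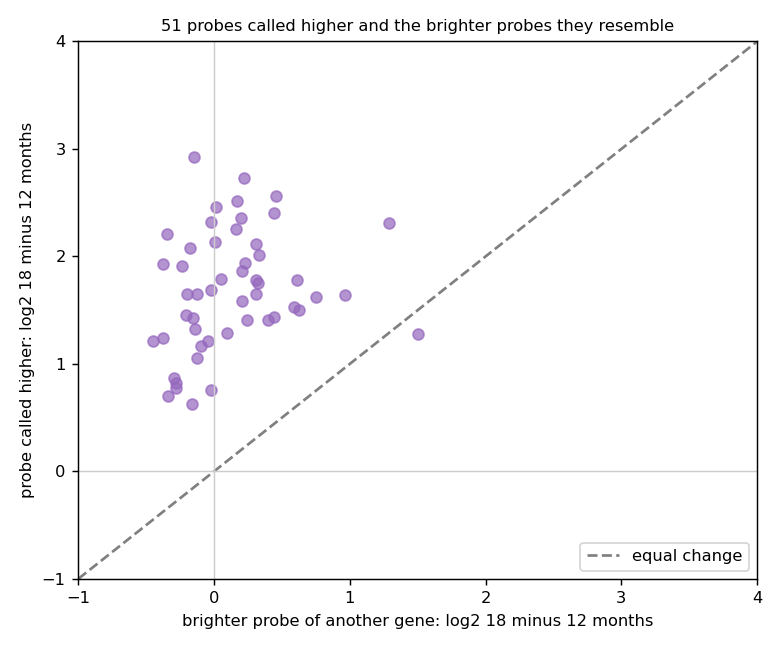
The difference of 18 minus 12 months (log2) of each of the 51 probes called higher is plotted against that of the brighter probe it resembles, with a dashed line of equal change. The probes called higher have a median of 1.65 and the brighter probes a median of 0.05.

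Genes with no symbol made up most of the rises. A symbol was known for 65 of the 230 genes called higher (28.3%) and for 20 of the 65 called lower (30.8%), against 11593 of the 21441 tested. Among the 948 probes with no name at all, 66 (6.96%) were called higher, against 1.07% of all genes tested. Olfactory receptor genes, which serve smell in the nose, were called higher for 9 of 182 (4.95%), against the same 1.07%. Their median level was -3.60, -3.43 and -3.37 on 12-month arrays 2, 3 and 4, and -2.87, -3.09 and -3.04 on 18-month arrays 1, 3 and 4. At 3 and 9 months it lay between -3.77 and -3.30, and at 24 months between -5.17 and -4.71. The median of the 229 genes with a brighter likeness was -0.82, 0.03 and 0.11 at 12 months and 0.88, 0.85 and 0.80 at 18 months, with array 2 of 12 months among the values of the other ages.

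**Figure D2:**
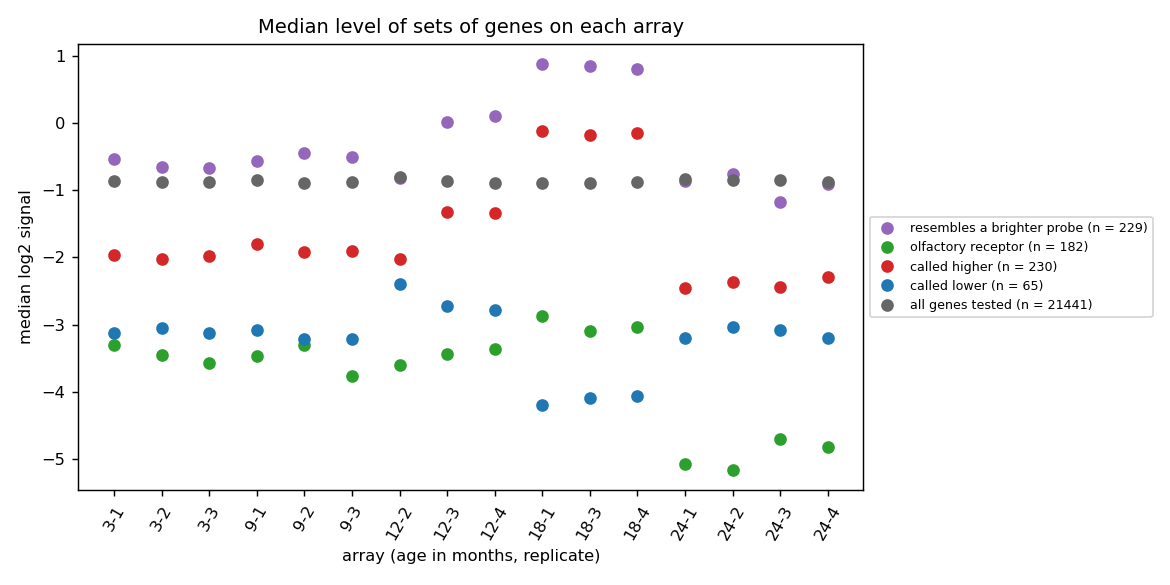
Median log2 signal of 5 sets of genes on each of the 16 arrays, named by age in months and replicate. The genes resembling a brighter probe lie at 0.80 to 0.88 at 18 months and at -0.82 to 0.11 at 12 months, and those called higher are also highest at 18 months.

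Among called genes with a symbol and a signal well above background on all 6 arrays, the 12 largest rises were of Cdh13, Slc31a1, Ergic2, Tmem52, Fbxo17, Dusp8, Actc1, Gtse1, Ugt2b1, Rpl10l1, Dhx16 and Erbb2, which rose by 1.37 to 2.66. Some genes not above background on every array, such as Gclm, had larger differences. For these 12, no array of 18 months overlapped one of 12 months. Over all genes tested, 11.7% lay above on all 18-month arrays and 13.6% below. Dhx16, Ergic2 and Tmem52 stayed called whichever of the 6 arrays was left out.

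Dhx16, an RNA helicase of the splicing machinery, read -1.35, -0.91 and -0.91 on 12-month arrays 2, 3 and 4 and 0.54, 0.33 and 0.22 on 18-month arrays 1, 3 and 4. Its probe lies at chr20:3009770-3009826 (rn4). The rise was 1.42 ± 0.15 (SE, limma adjusted p = 0.0014), and 1.27 within the shared scan session (adjusted p = 0.038). Its means at 3, 9 and 24 months were -1.93, -1.88 and -1.77, all under both. Tmem52, a membrane protein, read 0.54, 1.04 and 1.27 at 12 months and 3.23, 3.09 and 2.64 at 18 months. Its probe lies at chr5:172294188-172294369. The rise of 2.04 ± 0.26 (SE) had a limma adjusted p of 0.0023. Ergic2, a protein of vesicles between the endoplasmic reticulum and the Golgi, read -3.38, -2.05 and -1.88 at 12 months and -0.27, -0.30 and -0.31 at 18 months. Its probe lies at chr4:185797481-185797540. Array 2 was the lowest of 12 months for all of Dhx16, Ergic2 and Tmem52, and the difference of Ergic2 within the shared session was 1.67 against 2.15 over all 6 arrays.

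Slc31a1, the copper importer of the cell surface, read -1.85, 0.09 and 0.04 at 12 months and 1.71, 1.72 and 1.46 at 18 months. Its rise of 2.20 (limma adjusted p = 0.011) was 1.56 within the shared session, and its call ended without array 1 or array 3 of 18 months. Ugt2b1, a glucuronosyltransferase that conjugates steroids and drugs, read 5.76, 5.47 and 4.69 at 12 months and 7.15, 6.73 and 6.48 at 18 months. Its probe lies at chr14:22650838-22650897. The rise was 1.48 ± 0.25 (SE, limma adjusted p = 0.011), and the means of 6.54, 6.39 and 6.16 at 3, 9 and 24 months lay between those of 12 and 18 months. Its call ended without array 1 of 18 months (limma adjusted p = 0.059).

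Cdh13, a cadherin without a cytoplasmic part, rose by 2.66 (limma adjusted p = 0.029), and a further probe for it differed by 2.87. With normexp the rise of Cdh13 was 1.14 (limma adjusted p = 0.38). Its mean at 24 months, -0.46, was close to the -0.47 at 18 months, but the 24-month arrays ranged from -2.19 to 0.75. At 9 months the mean of Cdh13 was -1.66, above the -3.14 at 12 months. Dusp8, a phosphatase of MAP kinases, read 1.88, 3.06 and 2.98 at 12 months and 4.67, 4.02 and 4.23 at 18 months. Erbb2, a receptor of the EGF receptor family, read -2.14, -0.99 and -0.73 at 12 months and 0.07, 0.21 and -0.04 at 18 months. Without array 2 of 12 months the adjusted p was 0.105 for Cdh13, 0.16 for Dusp8, 0.093 for Erbb2, 0.11 for the F-box protein gene Fbxo17 and 0.062 for Gtse1, a gene of dividing cells. The calls of Cdh13, Fbxo17, Dusp8 and Erbb2 also ended without any 1 array of 18 months, that of Gtse1 without array 3 or array 4, and that of Cdh13 without array 4 of 12 months. Rpl10l1 and Actc1 have probes like a brighter probe, of Rpl10 and Actg2 respectively, and both calls ended without any 1 array of 18 months. The probe of Rpl10 differed by -0.16, whereas that of Actg2 differed by 0.97.

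**Figure D3:**
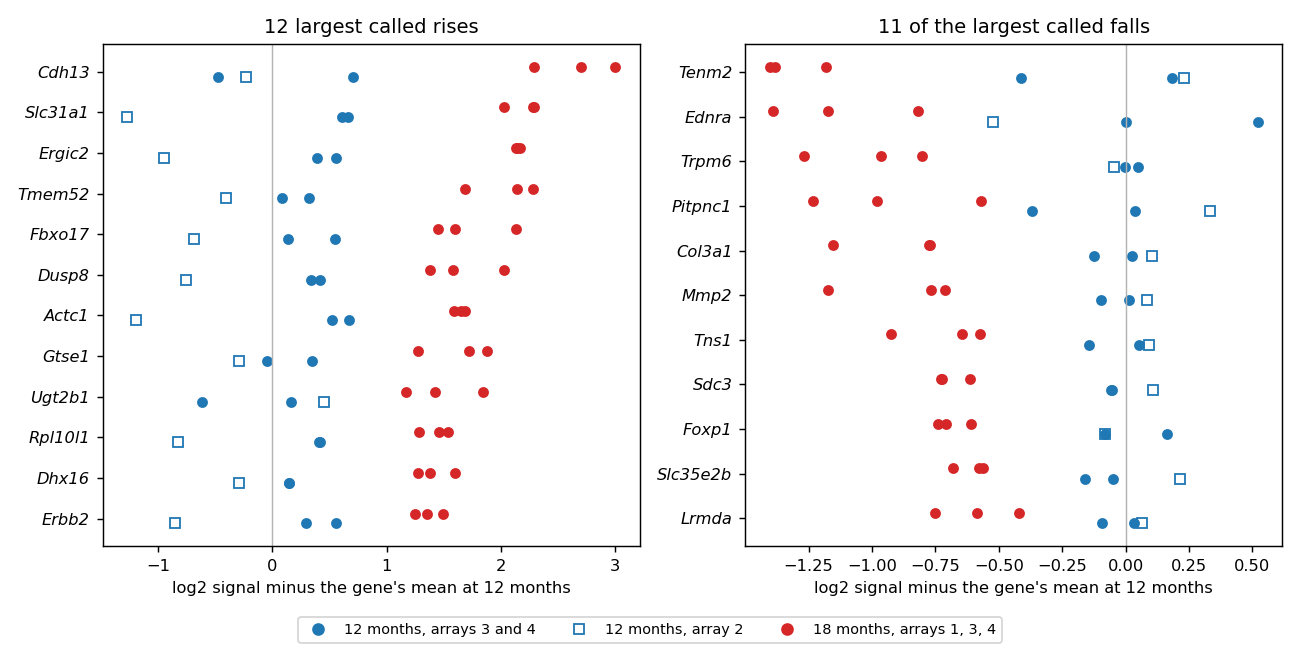
Log2 signal on each of the 6 arrays relative to the mean of that gene at 12 months, for the 12 largest rises and 11 of the largest falls among called genes with a symbol that were above background on all 6; each symbol is 1 array. No array of 18 months overlaps one of 12 months, and array 2 of 12 months (open squares) is the lowest of its age in 10 of the 12 rises.

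Under the same condition, a symbol and a signal well above background on all 6 arrays, the 12 largest falls were of -1.32 to -0.59 and included Tenm2, Ednra, Trpm6, Pitpnc1, Col3a1, Mmp2, Tns1, Sdc3, Foxp1, Slc35e2b and Lrmda. Col3a1, which encodes the fibrillar collagen of type III, was the one of these 11 that stayed called whichever of the 6 arrays was left out. It read 3.48, 3.25 and 3.40 on 12-month arrays 2, 3 and 4 and 2.60, 2.60 and 2.22 on 18-month arrays 1, 3 and 4. Its probe lies at chr9:44317465-44317524. The fall was -0.90 ± 0.14 (SE, limma adjusted p = 0.0070), and within the shared session it was -0.85 (adjusted p = 0.099). With normexp the fall was -0.86 (limma adjusted p = 0.18). Means at 3, 9 and 24 months were 4.36, 3.32 and 3.25, so 18 months was the lowest of the 5 ages. In bulk liver, fewer cells of a type and less RNA per cell cannot be told apart.

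Mmp2, a gelatinase that cleaves collagen, read -0.01, -0.08 and -0.19 at 12 months and -0.86, -0.80 and -1.27 at 18 months, and a further, dimmer probe differed by -0.24. Foxp1, a forkhead transcription factor, read 4.64, 4.89 and 4.64 at 12 months and 4.12, 4.02 and 3.99 at 18 months. Trpm6, a magnesium channel, read -1.22, -1.18 and -1.12 at 12 months and -2.44, -1.98 and -2.14 at 18 months. Ednra, a receptor of endothelin, fell by 1.13, but a further probe for it differed by 0.45, and for Tns1, a focal adhesion protein, the probes differed by -0.72 and 0.72. Such disagreement was not rare, since of 18 called genes with another kept probe, 11 had all probes of the same sign. Without array 2 of 12 months, the calls of Foxp1, Ednra and Col3a1 stayed and those of the other 8 ended (limma adjusted p = 0.081 to 0.17). All 11 but Col3a1 lost the call without array 1 or array 4 of 18 months, and all but Col3a1 and Pitpnc1 without array 3. Tenm2, Ednra, Trpm6 and Slc35e2b lost it without array 4 of 12 months, and Pitpnc1 and Tns1 without array 3.

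**Figure D4:**
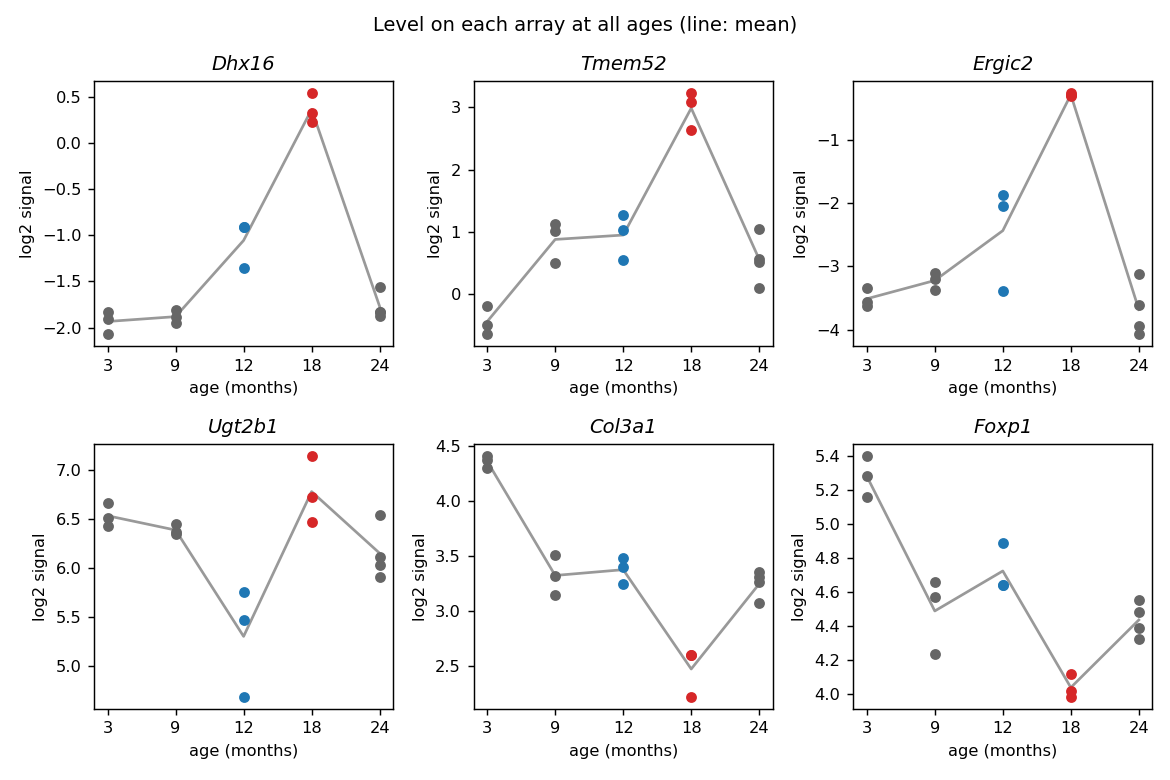
Log2 signal of 6 genes on each array at 3, 9, 12, 18 and 24 months, with ages spaced evenly and a line through the means; 12 months is blue and 18 months red. Dhx16, Tmem52 and Ergic2 are highest at 18 months, Ugt2b1 is lowest at 12 months, and Col3a1 and Foxp1 are lowest at 18 months.

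For the genes called higher, the levels at the other ages place the difference mostly at 18 months. Of the 230 genes called higher, 228 (99.1%) had the highest of their 5 age means at 18 months, against 22.0% of all genes tested. The lowest was at 12 months for 7 (3.04%), against 14.2% of all genes. Of the 65 called lower, 54 (83.1%) had the lowest mean at 18 months, against 29.3% of all genes. The highest was at 12 months for 32 (49.2%), against 18.5% of all genes, so both ages stood out for the falls. The 12- and 18-month means enter both the call and this order, so the shares are a description.

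Among 40 lists of liver functions and cell type markers, 950 genes were tested and 8 (0.842%) were called, against 1.38% of all genes tested. Among the 11593 genes with a symbol, 0.561% were called higher and 0.173% lower, together no larger a share than in the lists. The 8 list genes were Ugt2b1 of 26 xenobiotic metabolism genes, Gclm of 23 oxidative stress genes, Gbp4 of 40 interferon-induced genes, Col3a1 and Mmp2 of 31 stellate and matrix genes, Cldn4 of 13 bile duct genes, and Actc1 and Mb of 8 muscle genes. Of these, 3 were lower (Gbp4, Col3a1 and Mmp2) and 5 higher. In the other 34 lists limma called 0 genes. Without array 2 of 12 months, 4 list genes were called, and Ugt2b1, Col3a1 and Actc1 were among them, with Gzmm the other.

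Gclm, the regulatory subunit of the enzyme that limits glutathione synthesis, read -5.13, -4.85 and -6.54 at 12 months, not well above background on any array, and -3.26, -2.89 and -2.49 at 18 months. Gclm was at least 3.08-fold higher at 18 months. Its probe passed the background filter through the 18-month arrays alone, so its call is no separate support for the rise. The interferon-induced GTPase gene Gbp4 was well above background on 2 of 3 arrays at 12 months and on none at 18 months. The tight junction gene Cldn4 rose by 0.99, while a dimmer probe for it differed by -0.49. The oxygen store gene of muscle, Mb, rose by 0.89. The calls of Gclm, Gbp4, Cldn4 and Mb all ended without array 2 of 12 months (limma adjusted p = 0.070 to 0.17) and without any 1 array of 18 months. That of Gclm also ended without array 4 of 12 months, and that of Gbp4 without array 3.

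Median differences of the matrix list were small. The 31 stellate and matrix genes had a median of -0.24, against -0.06 over all genes, with 20 below 0 and 11 above. The 26 xenobiotic metabolism genes had a median of 0.29 with 19 above 0, but 0.03 without array 2 of 12 months, where their mean level was 2.79 against 3.39 and 3.20 on arrays 3 and 4 and 3.57 to 3.67 at 18 months. The 61 cytosolic ribosomal proteins had a median of -0.23, with 51 below 0 and 0 called, but -0.14 without array 2 of 12 months. The 29 genes of endoplasmic reticulum stress had a median of -0.24, with 25 below 0 and 0 called. An unadjusted p under 0.05 was reached by 11 of the 61 (18.0%) and 5 of the 29 (17.2%), close to the 18.2% of all genes tested. In a fit of the genes with a symbol alone, 1720 of 11593 reached it. The shares were larger in the matrix list, with 11 of 31 (35.5%), and in the xenobiotic list, with 7 of 26 (26.9%). Calr, a calcium-binding chaperone, read 5.60, 5.62 and 5.83 at 12 months and 5.32, 5.19 and 4.98 at 18 months (limma adjusted p = 0.089).

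The lists of lymphocytes, red cells and MHC class II presentation had the lowest medians, and the 13 neutrophil genes the highest, at 0.35 with 8 above 0 and 0 called. Only 6 of those 13 were well above background on all 12-month arrays. The 23 T and NK cell genes had a median of -0.84 and 0 called, with 12 (52.2%) at an unadjusted p under 0.05, against 18.2% of all genes tested. Their mean level was -1.75, -0.68 and -0.98 on 12-month arrays 2, 3 and 4 and -1.84, -1.79 and -1.61 on 18-month arrays 1, 3 and 4, so array 2 lay among those of 18 months. Gzmm, a granule protease of killer lymphocytes, read -0.03, 1.66 and 1.54 at 12 months and -0.19, -0.30 and -0.13 at 18 months (limma adjusted p = 0.15). The 9 genes of MHC class II presentation had a mean level of 2.77 on 12-month array 3 and of 1.27 to 1.40 on the other 5 arrays, and Cd74, their invariant chain, read 5.34 on that array and 2.69 to 3.25 on the others. The 8 red cell genes had a mean of 0.91 on 12-month array 2 and of -0.85 to -0.37 on the other 5, and Hbb, a beta globin, read 5.03 there. The part of these cells in the called differences was not tested. Of the 10 B and plasma cell genes, 4 were well above background on all 12-month arrays and 6 on all 18-month arrays, so their median of -0.64, with 0 called, rests largely on signal near background. The hepatocyte list had a median of -0.06 and 0 called.

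**Figure D5:**
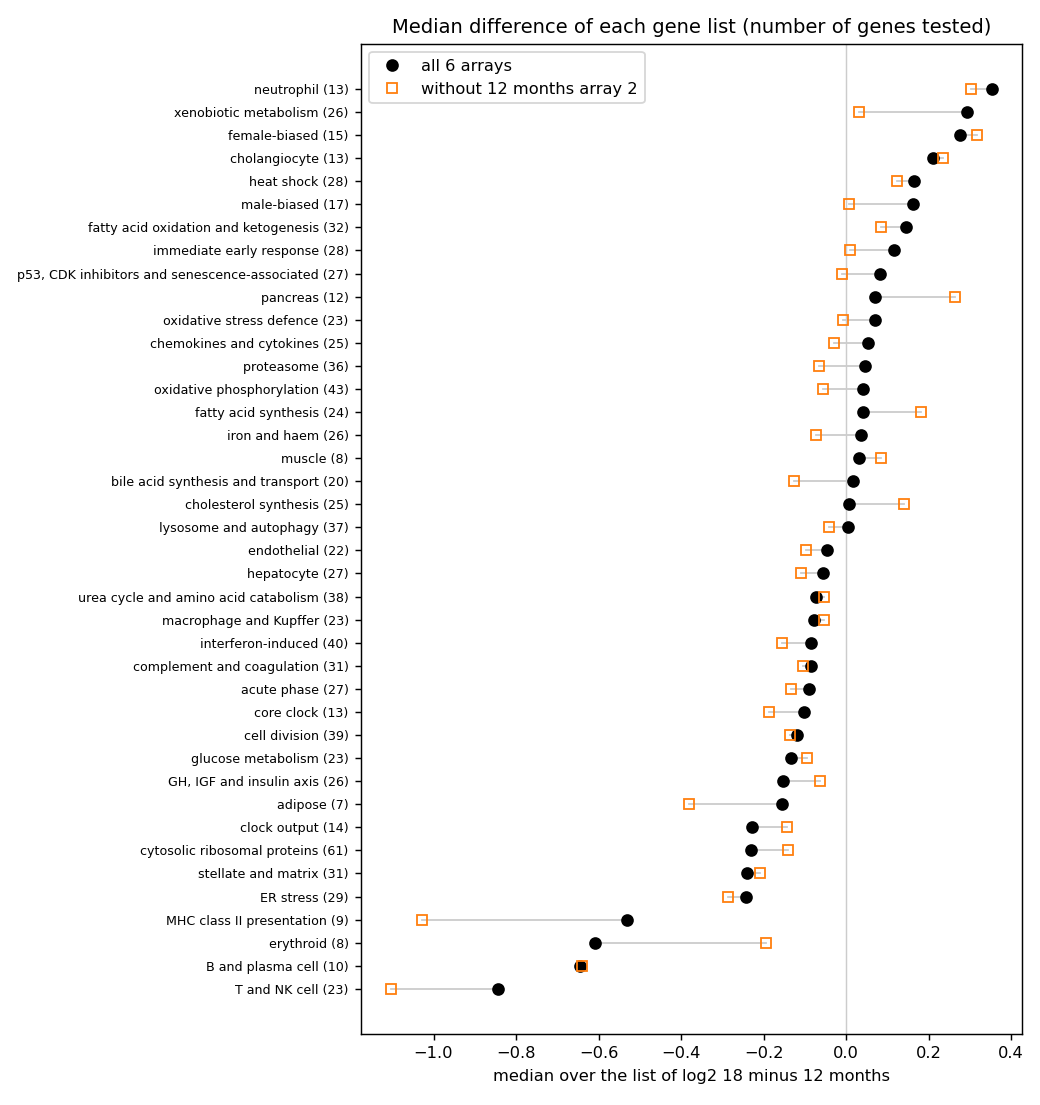
Median over the genes of each of 40 lists of the difference of 18 minus 12 months (log2), with all 6 arrays (black) and without array 2 of 12 months (orange), and the number of genes tested in brackets. The T and NK cell list is lowest at -0.84, and the xenobiotic metabolism list moves from 0.29 to 0.03 without that array.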

How the data were processed

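Total RNA of rat liver was measured on Agilent one-colour arrays, and groups followed the stated age. The members and gene lists were chosen with earlier results of these data known. Per the file headers, the signal columns hold intensity values made with Agilent Feature Extraction 10.7.3.1, not normalized between arrays, and their quality flags (above background, saturated, outlier) are of a further kind (other). The deposited series table holds log2 values that the authors normalized in a way not given in the sources used here. The labels name a microRNA labelling kit although the array measures messenger RNA, which was not resolved.

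The processed signal was taken to log2, outlier spots were set to missing, and each array was shifted by its 75th percentile. Probes were kept where every array of some age was well above background (25698 of 41012), with the probe of highest mean for each gene. Names came from accessions for 18495 probes, symbols for 2903 and synonyms for 388; 19226 kept the array's name. A mean per age over all 16 arrays was fitted with limma 3.58.1 in R 4.3.3 (data.table version 1.17.8), and 18 minus 12 months was tested two-sided with Benjamini-Hochberg adjustment at 0.05. Probes were compared with blastn 2.17.0+ (word size 11, same strand). Named genes were the 12 largest called rises and falls with a symbol and above background on all 6 arrays, up to 4 called members per list or 2 of lowest p where none was called, and up to 3 genes in each direction that only 1 of both ages measured; 1 of the largest falls is not reported here, and not all others are named. Tested on simulated data for 18 against 12 months over 21441 genes, the procedure found 51 of 100 changes of 2-fold and 90 of 100 of 4-fold, and 11 of its 152 calls were false. The simulated noise was independent between arrays, with the same spread at every age and no effect of slide or scan session. These rates therefore need not hold for the measured arrays. Plots used Python 3.11.15, pandas 2.3.3 and matplotlib 3.10.9. Alternatives are given in the closing section.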

Additional observations from a re-analysis of the deposited data

How the results depend on the processing

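The 295 genes called became 320 with quantile normalization, 313 with the series table, 238 with no filter, 221 with genes above background on all 16 arrays, 289 with the mean of probes, 390 with array weights and 219 with a fold of at least 2. They became 37 with normexp, all 37 higher where 78.0% of the 295 were, and 2 on the 6 arrays alone, 0 with slide as a random block (correlation 0.687), 174 with scan session as a block, which uses the same 12- and 18-month arrays as leaving out array 2, and 176 on session 2 alone. Chosen after seeing the data, tests without probes like another gene's and on genes with a symbol alone gave 155 and 30. These tests still held 233 and 85 of the 295 genes. Leaving out 1 array gave from 82 to 724 calls, 174 without array 2 of 12 months, 724 without array 3 and 454 without array 4, and 82, 98 and 93 without arrays 1, 3 and 4 of 18 months. All 295 kept their sign in these leave-one-out fits. The 8 list genes called became 0 with normexp, slide as a random block or the 6 arrays alone, 2 with no filter, 4 with the session block, 19 with array weights, and 1 to 16 with 1 array left out. The replicate number as a block gave 98 calls, 97 of them among the 295, and 2 list genes. Same-numbered arrays did not deviate together (r = -0.17 for replicate 3 and -0.02 for replicate 4). Arrays of unlike number gave r from -0.14 to 0.20. So few values cannot settle whether the numbers pair the samples, and the fit behind the 295 calls used no pairing. Of the 32 called genes under the naming rule, 5 (Tmem52, Dhx16, Ergic2, Col3a1 and Brwd3) stayed called in every fit that left out 1 array. Of these, Brwd3 passed the background filter through the 18-month arrays alone, so its call is no separate support for the rise. With normexp 3 of the 32 were called, and 0 with slide as a random block or on the 6 arrays alone. The cause of these changes was not tested. Signal over background limits genes such as Gclm and Gbp4, of which only a bound or no fold can be given.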
